A study of Mus musculus with 2 samples.

Results

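Mature migratory dendritic cells are dendritic cells that have switched on the lymph homing receptor Ccr7 and the actin bundling protein fascin (Fscn1). They were identified here in single cells from optic nerve preparations of mice that model optic glioma. A cell barcode was kept with at least 500 UMIs (unique molecular identifiers, each standing for 1 captured transcript), at least 200 genes and at most 20% mitochondrial UMIs. A kept barcode counted as a mature migratory dendritic cell, called a member below, when it held at least 2 UMIs of Ccr7, at least 1 of Fscn1, at least 5 of Ccr7, Fscn1, Ccl22 and Cacnb3 together, and at least 10 of Cd74. It also had to hold at most 1 UMI of the T cell genes Cd3d, Cd3e and Cd3g together and no UMI of the B cell gene Cd79a. The rule found 118 members among 19834 kept barcodes, 93 of 15726 in the vancomycin library and 25 of 4108 in the control library. Because these transcripts chose the members, their levels are given as a description and support nothing.

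The study concerned gut bacteria and the immune infiltration of Nf1 optic glioma. Both libraries came from Nf1-OPG mice (Nf1flox/neo; GFAP-Cre). In both groups every cell, dendritic cells included, carries 1 Nf1 allele disrupted by a neomycin cassette, and GFAP-Cre removes the floxed allele in neuroglial progenitors. One group received vancomycin and the other PBS, from 6 to 12 weeks of age, and tissue was taken at 12 weeks. Tissue of 10 mice was pooled for a library, and the tissue label reads optic nerve, while the protocol also mentions meningeal dura. The control library's title carries a tag, ON, that the other title lacks, and whether both libraries hold the same tissue was not settled. Each group is 1 library. Differences between the groups therefore have no replicate check, no p-value is given, and treatment, library, pool, any difference in tissue and processing version cannot be told apart. Intervals below are exact 95% intervals that cover counting error only.

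Dendritic cells take up antigen in tissue and, once activated, mature: they raise Ccr7, cut back uptake, load peptides on MHC molecules, express costimulatory ligands and move through lymphatics to lymph nodes. There they present antigen to T cells. Maturation also brings molecules that restrain T cells, such as Cd274 (PD-L1) and Cd200, and runs through the NF-kappaB transcription factors. Conventional dendritic cells, the immature counterparts, come as cDC1, marked by Xcr1 and Clec9a and known for cross-presentation to CD8 T cells, and cDC2, marked here by Cd209a and Clec10a.

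The comparison cells were conventional dendritic cells defined by UMIs of these subset genes with no Ccr7 UMI: 393 cDC1 and 238 cDC2 in the vancomycin library, and 8 cDC1 and 10 cDC2 in the control library. Members held 1128423 UMIs in the vancomycin library (median 10560 a cell, from 991 to 42098) and 281718 in the control library (median 10307, from 2601 to 21077). Kept barcodes held medians of 6970 and 4870.5 UMIs, and conventional dendritic cells 12593 and 9829.5. The 2 libraries share 100 barcodes, and no member is among them. The library of the vancomycin group was made with another Cell Ranger version than the control library, 7.2.0 against 6.0.1. Its kept cells carried far more oligodendrocyte RNA, with 6 oligodendrocyte markers summing to 8930 CPM against 167 CPM in the control library (CPM is a count scaled to a library total of 1000000).

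Per cell, Ccr7 and Fscn1 were higher in the control members. Ccr7, the receptor for the chemokines of lymphatic vessels and nodes, ran from 0.92 through a median of 18.8 to 285 UMIs per 10000 UMIs of the cell in the vancomycin members. In the control members it ran from 3.54 through 82.0 to 213. Fscn1, which bundles actin in dendrites, ran from 0.40 through 8.35 to 134 in the vancomycin members and from 0.95 through 45.0 to 122 in the control members. The ranges overlapped almost fully, while the medians of both genes were lower in the vancomycin members. Ccl22, a chemokine that attracts Ccr4-bearing T cells, had a median of 1.17 per 10000 in the vancomycin members (up to 87.2) and of 3.84 in the control members (up to 16.0). Cacnb3, a calcium channel subunit used as a marker of the mature state, was at 0 in the median vancomycin member and at 4.89 in the median control member. All 4 of these transcripts were seen together in 28 of 93 and 15 of 25 members. Cd74, the invariant chain of MHC class II, went the other way, with medians of 363 and 43.2.

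**Figure D1:**
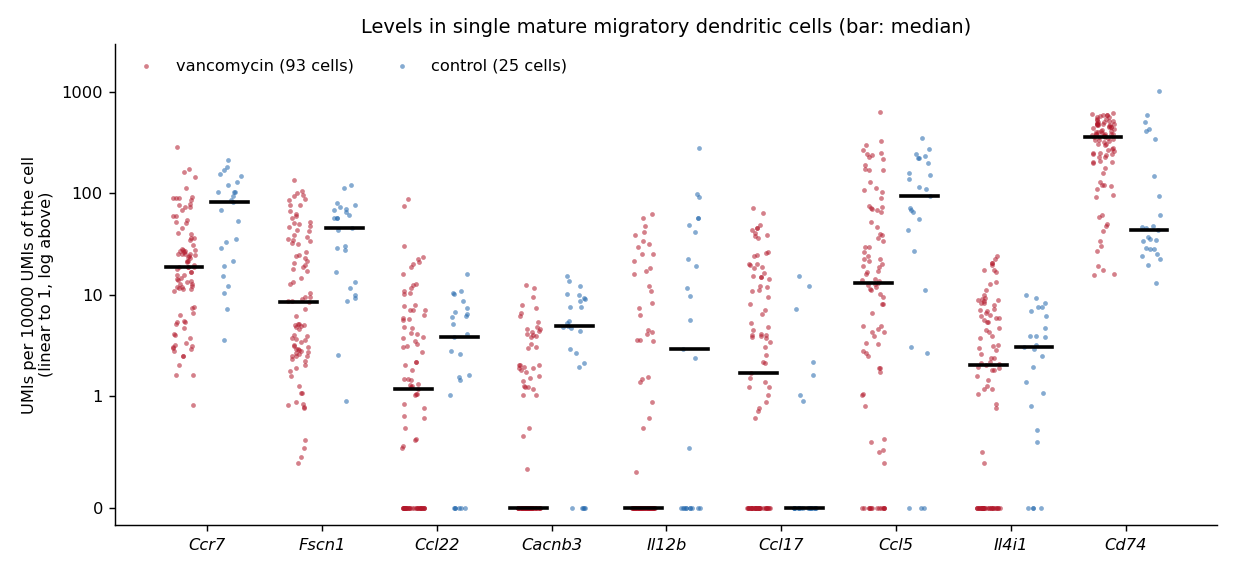
UMIs per 10000 UMIs of the cell for 9 genes (vertical axis, linear to 1 and logarithmic above) in each of 93 vancomycin and 25 control members, with a bar at the median. Ccr7, Fscn1, Ccl22, Cacnb3 and Cd74 chose the members. Cd74 has medians of 363 and 43.2, and Il12b is at 0 in most vancomycin members.

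The label could be checked on Il12b, the p40 subunit of the cytokines IL-12 and IL-23, which is a given marker but not part of the rule. It had 739 UMIs in 32 of 93 vancomycin members (34.4%, interval 24.9 to 45.0) and 807 UMIs in 15 of 25 control members (60%, interval 38.7 to 78.9). Of T cells, which should lack it, 9 of 3914 (0.230%) and 4 of 1778 (0.225%) held a UMI, at median depths of 4322 and 5149.5 UMIs. After every cell was thinned to 2000 UMIs, which left out 4 vancomycin members and no control member, Il12b was seen in 19 of 89 (21.3%) and 11 of 25 (44%) members. The marker thus stood far above the T cell background in both libraries, but most members of the vancomycin library carried none. A few cells held most of it: the 5 highest members carried 58.3% of the Il12b UMIs in the vancomycin library and 82.3% in the control library.

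Markers of other cell types ranged from absent to abundant in members. The NK cell list gave 7.09 CPM in vancomycin and 0 CPM in control members. The B cell list (6.20 and 0 CPM) and the T cell list (23.9 and 10.6 CPM) hold genes that the rule limited, so their low sums were largely set by it. Plasmacytoid dendritic cell markers summed to 650 and 490 CPM, microglia markers to 414 and 795 CPM, monocyte markers to 430 and 124 CPM and plasma cell markers to 308 and 209 CPM, and their part in the results was not tested. Some members stood out for 2 other lineages. First, 10 vancomycin and 2 control members held at least 4 UMIs of the complement genes C1qa, C1qb and C1qc, which mark macrophages and microglia. Of the 9 genes of the macrophage list, 5 were seen in vancomycin members and 4 in control members. Its genes Pf4, Ms4a7, Cd163 and Lyve1 were at 0 in members of both libraries. The macrophage list summed to 1552 and 873 CPM, from 0 to 249 and from 0 to 187 UMIs per 10000 in single members. All 7 microglia markers were seen in members of both libraries. Second, 9 vancomycin members and no control member held at least 50 UMIs of the myelin genes Mag and Mal together; the oligodendrocyte list summed to 3315 CPM in vancomycin and 131 CPM in control members. Members of either kind, 18 and 2, are called admixed below, and values without them are given where they matter. A single vancomycin member was rich in haemoglobin, with 4361 UMIs of the erythroid list per 10000.

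The share of mature migratory dendritic cells did not differ between the libraries beyond counting error under the rule as given. They were 0.591% of kept cells with vancomycin (interval 0.478 to 0.724) and 0.609% in the control library (0.394 to 0.897), a ratio of 0.972 with an interval of 0.619 to 1.58. Leaving out oligodendrocytes, cells with at least 10 UMIs of Mag and Mal together, gave 84 of 11642 (0.722%) and 25 of 4107 (0.609%), a ratio of 1.19 (0.751 to 1.93). Applying the rule to cells thinned to 2000 UMIs gave 49 of 13871 (0.353%) and 9 of 3196 (0.282%), a ratio of 1.25 (0.610 to 2.90). Each of these intervals includes 1. Conventional dendritic cells differed far more: cDC1 were 2.50% against 0.195% of kept cells, a ratio of 12.8 (6.45 to 29.9), and cDC2 1.51% against 0.243%, a ratio of 6.22 (3.32 to 13.1).

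The number of members set against other cells therefore depended on the cells chosen. Per 100 conventional dendritic cells there were 14.7 members with vancomycin (interval 11.7 to 18.3) and 139 in the control library (72.8 to 270). Members were 12.8% of all mature and conventional dendritic cells with vancomycin, 93 of 724, and 58.1% in the control library, 25 of 43. Set against lymphocytes and resident cells the order turned around. There were 2.38 members per 100 T cells with vancomycin and 1.41 in the control library, and 8.40 and 2.92 per 100 microglia.

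The edge of the rule also mattered. The Cd74 minimum alone kept out 20 control and 5 vancomycin barcodes. The 20 control barcodes had a median of 1167 UMIs, 18 of them held Il12b and 15 held at least 4 UMIs of the C1q genes. Without the Cd74 minimum the shares were 0.623% (98 cells) and 1.10% (45 cells), a ratio of 0.569 (0.396 to 0.829). The Cd79a limit removed 73 vancomycin and 4 control barcodes, and without it the shares were 1.06% and 0.706%, a ratio of 1.5 (1.003 to 2.30). The Fscn1 minimum alone removed 41 and 8 barcodes, and the CD3 limit alone 21 and 0. Just inside the required sum of 5 lay 3 vancomycin members at 5, 7 at 6 and 3 at 7 UMIs, with no control member in that range, and just outside it lay 1 vancomycin barcode. The Cd74 minimum and the Cd79a limit thus moved the ratio in opposite directions.

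**Figure D2:**
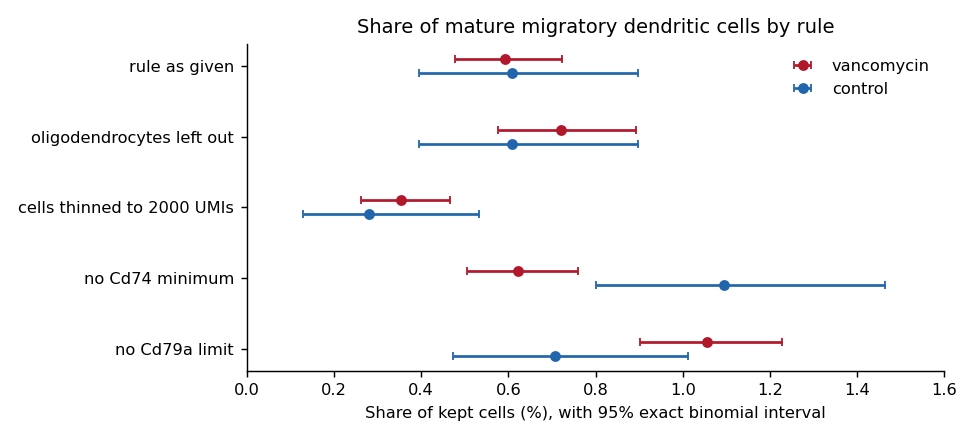
Share of kept cells (horizontal axis, percent, with exact binomial 95% intervals) that were mature migratory dendritic cells under 5 versions of the rule, for both libraries. The points of the 2 libraries overlap in their intervals for the rule as given (0.591% and 0.609%) and separate without the Cd74 minimum (0.623% and 1.10%).

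Members were then compared with conventional dendritic cells of the same library, from UMIs summed over the cells of a class and given as CPM. Ratios are on the log2 scale with 10 CPM added to both sides, which understates the change of low genes. A gene with at least 20 UMIs in the 2 classes together was counted, and it was called at a ratio of at least 2-fold; genes of the rule and of the class definitions were left out. Both classes were chosen on counts of the same cells, so these differences are a description. In the vancomycin library 432 of 11679 genes (3.70%) were at least 2-fold higher in members and 234 (2.0%) at least 2-fold lower. Of all calls 64.9% were thus higher, and 53.3% with edgeR TMM factors or 53.9% with median of ratios factors. Against the 18 conventional cells of the control library, 606 of 3535 genes (17.1%) were higher and 428 (12.1%) lower. There, higher calls were 58.6% of all calls, and 70.6% with median of ratios factors, which moved the median of all genes by 0.20 on the log2 scale. Of the 258 genes called higher with vancomycin among the 3531 counted in both libraries, 233 (90.3%) were also called higher in the control library, and these were 38.7% of the 602 called there. For lower genes the overlap was 94, which is 82.5% of 114 and 21.96% of 428. Counts of called genes in the lists below are to be read against the shares of all genes called in the same library.

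The strongest shared difference was Il12b, at 655 CPM in members against 4.43 CPM in conventional dendritic cells with vancomycin, a ratio of 148 (interval 107 to 211). The control values were 2865 against 4.16 CPM, where the conventional cells held a single UMI (ratio 689, interval 123 to 27249). Its partner p35, Il12a, had 2 UMIs in vancomycin and 0 in control members, and the IL-23 subunit Il23a had 9 and 1, so the p40 transcript stood alone at this depth. Il4i1, a secreted enzyme that breaks down phenylalanine and tryptophan and restrains T cells, was at 422 against 3.73 CPM with vancomycin. Control members held it at 327 CPM against no UMI, at least 26.2-fold higher. Ccl5, a chemokine that attracts T cells, was at 3878 against 142 CPM and at 9705 against 58.2 CPM, log2 ratios of 4.67 and 7.15. All 3 were higher than in conventional cells in both libraries, but the same sign in both was a condition of the ranking.

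The maturation signature, 32 genes beside the 4 of the rule, was chosen as the known program of these cells and with results of these data in view, so its direction is not independent evidence. Of its 32 genes, all counted with vancomycin, 29 were called higher and 0 lower; their median log2 ratio was 1.78 (1.81 with genes at 0 set to their bound) against -0.00 over all genes. Of 28 counted in the control library, 25 were called higher and 0 lower, with a median of 2.71 (2.56 at the bound) against 0.03. Socs2, a feedback inhibitor of cytokine signalling, was at 130 against 1.86 CPM with vancomycin and at 245 CPM against no UMI in the control library, at least 19.6-fold higher. Nudt17, a predicted nucleotide hydrolase, was at 222 against 1.05 CPM and at 383 CPM against no UMI, at least 30.7-fold higher. The nonclassical MHC class I gene H2-M2 was at 123 and 81.6 CPM in members, with log2 ratios of 3.39 and 3.20. Zmynd15 (log2 ratios of 3.24 and 5.08) and Mreg (3.07 and 4.57), a regulator of organelle transport, belonged to the same group.

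Genes outside that signature were also among the 15 highest. Cd63, a tetraspanin of late endosomes, had log2 ratios of 3.31 with vancomycin and 6.14 in the control library. Fabp5, a carrier of fatty acids, was at 966 against 116 CPM (2.96) and at 1431 against 16.6 CPM (5.76). Tmem123 (porimin), a surface mucin-like protein, was at 790 and 2137 CPM, with log2 ratios of 3.27 and 4.53. Ramp3, which partners the receptor of adrenomedullin, had ratios of 3.27 and 2.40, and Glipr2 of 3.27 and 4.0. Apoe (3.51 with vancomycin) and Cxcl13 (4.14) also ranked there, but 85.7% and 98.6% of their UMIs lay in the 10 members with C1q UMIs. Without admixed members their log2 ratios were 1.68 and 0.28.

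Among the 10 most reduced genes was 1 of the cDC1 markers, Naaa. This lysosomal lipid amidase was at 50.5 against 658 CPM with vancomycin and at 10.6 against 669 CPM in the control library, log2 ratios of -3.47 and -5.04. Against vancomycin cDC2 alone Naaa was level, at 50.5 and 53.6 CPM. Ccr2, the receptor that brings monocytes and precursors into tissue, had ratios of -2.64 and -3.75, with no UMI in control members. Mctp1 (-2.13 and -3.56), Lrba (-2.18 and -1.75) and BC028528 (-2.24 and -2.96) were lower too. Acvrl1 was lower with vancomycin (-2.12) and had a ratio of -0.80 in the control library. There, cDC2 held no UMI of it and members held 53.2 CPM. Against vancomycin cDC2 alone the gaps were smaller, at 23.9 against 31.1 CPM for Lrba and 19.5 against 28.8 CPM for Acvrl1. Mctp1 was at 43.4 against 110 CPM and BC028528 at 21.3 against 47.8 CPM. The palmitoyl thioesterase Ppt1 (-2.68 and -4.31), the scavenger receptor Cd36 (-2.54 and -3.74) and Rab7b (-2.11 and -4.45) were lower against all conventional cells but higher against cDC2 alone, by 0.74, 1.32 and 1.03 with vancomycin and by 0.26, 0.44 and 0.44 in the control library. Plin2, a lipid droplet protein, had ratios of -2.05 and -1.13, and was 0.17 higher against control cDC2. Of the 8 counted cDC1 markers outside the class rule, 6 were called lower and 0 higher with vancomycin. Of 7 counted in the control library 5 were called lower and 2 higher, the latter being the transcription factors Irf8 and Batf3 (named after its values were seen).

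Chemokines were among the transcripts that set members apart. Of 13 chemokines counted with vancomycin 7 were called higher and 0 lower (median log2 ratio 1.37), and of 7 counted in the control library 6 were higher and 0 lower (median 2.95). Ccl17, which like Ccl22 binds Ccr4 on T cells, was at 1263 against 225 CPM with vancomycin and at 131 against 49.9 CPM in the control library, log2 ratios of 2.44 and 1.24. Cxcl16, the membrane-bound ligand of Cxcr6 on tissue T cells, had ratios of 1.37 and 1.55. Cxcl9, a ligand of Cxcr3 on effector T cells, was higher with vancomycin (1005 against 329 CPM, log2 ratio 1.58) and had a ratio of -0.51 in the control library. Cxcl10, another Cxcr3 ligand, had a ratio of 1.48 with vancomycin, and in the control library its 17 and 2 UMIs were too few to be counted. Cxcl2, a neutrophil chemokine, was at 136 CPM with vancomycin (1.66) and at 245 CPM against no UMI in the control library, but 1 control member held 67 of the 69 control UMIs. The inflammatory chemokines Ccl3 and Ccl4 were high in the control library through 2 C1q members, which held 46 of 46 and 128 of 129 UMIs.

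Of 15 cytokine and receptor genes counted with vancomycin 5 were called higher and 0 lower (median 0.75), and of 10 in the control library 6 were higher and 1 lower (median 1.72). Il1a and Tnf were 2 of those 6, with 122 of 124 and 28 of 30 control UMIs in the 2 control C1q members, and without admixed members their ratios were -0.79 and -1.64. Beside Il12b, genes called higher in both libraries were Il15ra, which presents IL-15 to T and NK cells (log2 ratios of 1.76 and 4.82), and Il1rn, the IL-1 receptor antagonist (2.18 and 4.41). Il7r, the IL-7 receptor chain, had ratios of 1.97 and 2.37. Il15 itself was at 38.1 against 12.0 CPM with vancomycin (1.13). Il1b, the inflammatory cytokine, was at 2028 against 1204 CPM with vancomycin (0.75) and at 909 against 2220 CPM in the control library (-1.28). Against control cDC1 alone Il1b was 4.05 higher. With vancomycin it was at 281 CPM in cDC1 and 3362 CPM in cDC2. Its direction thus depended on the subset in both libraries.

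Costimulatory ligands were unequally shared. With vancomycin 8 of 14 counted genes were called higher and 1 lower (median 1.05), and in the control library 4 of 10 higher and 2 lower (median 0.71). Cd40, through which T cells license dendritic cells, was at 336 against 59.2 CPM and at 174 against 41.6 CPM, log2 ratios of 2.32 and 1.83. Cd80, a ligand of Cd28, had ratios of 1.32 and 2.23, while Cd86, the other one, had ratios of 0.32 and -0.06. Cd83, which keeps MHC class II and Cd86 at the surface, was at 1156 and 1789 CPM with ratios of 1.01 and 0.90. In the control library cDC1 held Cd83 at 393 CPM and cDC2 at 2469 CPM, above the members. Icam1, the adhesion ligand of LFA-1, had ratios of 1.33 and 1.45. Slamf7 (0.43 and -1.30) and Cd48 (-0.63 and -1.93), both receptors of the SLAM family, passed the 2-fold limit in the control library and not with vancomycin, a difference that was not tested. Cd24a was lower with vancomycin (-1.90) and 0.37 higher against cDC2 alone.

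Molecules that restrain T cells stood beside them. Of 19 counted with vancomycin 8 were called higher and 1 lower (median 0.78), and of 14 in the control library 8 higher and 3 lower (median 1.57). Cd200, whose receptor dampens myeloid and T cells, was at 157 against 23.4 CPM with vancomycin and at 646 against 8.31 CPM in the control library, log2 ratios of 2.32 and 5.16. Cd274 was at 352 and 273 CPM, and a UMI of it was seen in 78 of 93 and 16 of 25 members; in T cells the shares were 29.5% and 30.8%. Fas, a death receptor, had ratios of 1.71 and 2.03. Aldh1a2, which makes retinoic acid, had ratios of 2.0 and 1.85, but 51 of its 76 vancomycin UMIs lay in a single member, and the 9 members with Mag and Mal UMIs together held 72.4%.

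Most counted genes of the NF-kappaB pathway were higher in members. All 24 genes of the list were counted with vancomycin and 17 were called higher, 0 lower (median log2 ratio 1.20). Of 23 counted in the control library, 17 were called higher and 0 lower, with a median of 1.77. Relb, the subunit of the alternative pathway, was at 382 against 55.7 CPM (2.58) and at 671 against 116 CPM (2.43). Its partner Nfkb2 had ratios of 1.76 and 2.26, and Traf1, a receptor adaptor and NF-kappaB target, 2.17 and 2.14. Nfkbia, the inhibitor IkappaB alpha, was at 1763 against 744 CPM (1.23) and at 1477 against 540 CPM (1.43); against cDC2 alone its ratios were -0.0027 and -0.20. Bcl2a1b, an inhibitor of cell death, had ratios of 1.38 and 2.36, with the caution that it has near-identical copies between which reads may be split.

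The kappaB consensus, the base pattern that NF-kappaB dimers bind, was searched by name on both strands in the 250 bases before the gene starts of the RefSeq promoter table (GRCm38.p6), with overlapping matches on the 2 strands counted separately. It was present for 1204 of 27025 genes (4.46%) and for 10 of 21 genes of the NF-kappaB list found in the table (47.6%). It was present for 4 of 11 chemokines (36.4%), 4 of 15 cytokines (26.7%), 3 of 12 MHC class II genes (25%) and 3 of 27 maturation genes (11.1%). For costimulation it was 1 of 10, for immune restraint 1 of 17, and for the rule genes and Il12b 0 of 4. Of genes at least 2-fold higher in members of both libraries 29 of 196 (14.8%) held it, against 193 of 2847 (6.78%) of genes counted in both. Genes of the rule and of the class definitions were not left out of these sets. A match is a run of letters and not evidence of binding, and no match says nothing beyond this window. A window without a match can still hold a site that differs from this pattern, which was not searched.

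Windows are shown for the marker Il12b, for NF-kappaB pathway genes with a match (Rel, Nfkbia and Nfkbie) and for Cxcl10, so that genes with and without the pattern can be compared. Each lies just upstream of the annotated start of a protein-coding gene and reads 5′ to 3′ along the gene's strand, in lower case with kappaB matches in capitals. They are at chr11:44399813-44400062 (+ strand), chr11:23770970-23771219 (- strand), chr12:55492648-55492897 (- strand), chr17:45555450-45555699 (+ strand) and chr5:92348890-92349139 (- strand) of GRCm38.p6.
Il12b: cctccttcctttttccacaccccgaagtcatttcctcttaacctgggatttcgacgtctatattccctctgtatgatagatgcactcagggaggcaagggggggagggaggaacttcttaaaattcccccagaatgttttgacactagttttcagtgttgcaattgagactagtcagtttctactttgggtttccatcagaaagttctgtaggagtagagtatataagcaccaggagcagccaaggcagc
Rel: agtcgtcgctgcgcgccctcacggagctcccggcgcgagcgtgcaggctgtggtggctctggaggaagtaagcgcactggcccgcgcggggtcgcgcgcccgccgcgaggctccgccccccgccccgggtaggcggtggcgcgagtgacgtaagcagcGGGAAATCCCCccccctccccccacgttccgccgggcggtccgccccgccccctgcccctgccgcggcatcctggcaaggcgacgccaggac
Nfkbia: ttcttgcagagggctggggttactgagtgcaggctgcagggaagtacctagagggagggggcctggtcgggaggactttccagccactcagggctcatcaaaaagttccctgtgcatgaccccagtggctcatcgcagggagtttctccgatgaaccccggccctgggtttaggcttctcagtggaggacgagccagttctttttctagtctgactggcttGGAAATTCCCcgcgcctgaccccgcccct
Nfkbie: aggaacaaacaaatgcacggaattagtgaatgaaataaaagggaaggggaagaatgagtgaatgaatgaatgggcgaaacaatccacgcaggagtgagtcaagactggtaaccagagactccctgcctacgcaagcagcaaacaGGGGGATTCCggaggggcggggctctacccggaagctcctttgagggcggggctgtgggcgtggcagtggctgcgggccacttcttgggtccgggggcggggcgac
Cxcl10: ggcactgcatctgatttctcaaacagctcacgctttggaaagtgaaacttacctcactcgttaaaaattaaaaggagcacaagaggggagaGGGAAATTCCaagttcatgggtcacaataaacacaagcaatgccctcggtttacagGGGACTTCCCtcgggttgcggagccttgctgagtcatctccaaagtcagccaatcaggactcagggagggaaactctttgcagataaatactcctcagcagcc
The match before Rel lies 92 to 83 bases from its start and overlaps a match on the other strand, that before Nfkbia 29 to 20 bases and that before Nfkbie 106 to 97 bases. Cxcl10 has 2 matches, at 159 to 150 and 103 to 94 bases, and Il12b has no full match to the pattern in this window. Nfkbia and Cxcl10 were higher in vancomycin members than in conventional cells by 1.23 and 1.48 on the log2 scale, and Il12b, without a match, by 5.53.

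MHC class II genes went both ways in members. Of 14 counted with vancomycin 3 were called higher and 1 lower (median -0.20), and of 12 in the control library 1 higher and 6 lower (median -0.99). H2-Aa, the alpha chain of I-A, was at 11366 against 13053 CPM with vancomycin (-0.20) and at 6744 against 13303 CPM in the control library (-0.98). H2-DMb1, part of the peptide exchanger of class II, was lower in both, by log2 ratios of -1.37 and -2.63. Lgmn, an endosomal protease that trims antigen and the invariant chain, was higher in both, by 2.24 and 3.31. Class I and its peptide loading differed little with vancomycin, with 1 of 20 genes called higher (Psme2, an activator of the proteasome, 1.12) and 0 lower (median 0.35). In the control library 7 of 20 were higher and 1 lower (median 0.57). H2-K1, a classical class I chain, had ratios of 0.52 and 1.13, and H2-D1 of 0.40 and 0.98.

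Interferon, uptake and migration genes were counted next. Of 24 type I interferon genes 3 were called higher with vancomycin and 0 lower (median 0.25), and of 14 in the control library 2 were higher and 8 lower (median -1.39). Gbp2, an interferon-induced GTPase, was higher in both (1.97 and 2.58), and Irf1 had ratios of 0.87 and 2.37. Of 26 counted genes of uptake and sensing, 1 was called higher and 4 lower with vancomycin (median 0.19). Tlr3, the sensor of double-stranded RNA and a cDC1 gene, was at 4.43 against 96.1 CPM there, a log2 ratio of -2.88. In the control library 1 of 11 was higher and 5 lower (median -0.70). Migration and cytoskeleton genes beside Ccr7 and Fscn1 were called higher in 11 of 21 and lower in 1 with vancomycin (median 1.15), and higher in 11 of 14 and lower in 2 in the control library (median 2.46). Beside Tmem123, given above, Samsn1, a signalling adaptor, had ratios of 2.94 and 3.41.

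The remaining lists differed in direction. Cell cycle genes were called higher in 0 and lower in 6 of 16 with vancomycin (median -0.75), and in 0 of 7 either way in the control library (median -0.49). Ube2c, a mitotic ubiquitin enzyme, had a ratio of -2.12 with vancomycin, and Hmgb2 ratios of -0.87 and -1.0. Against vancomycin cDC2 alone Ube2c was 0.11 higher, and Hmgb2 was at 200 against 168 CPM, while cDC1 held Hmgb2 at 462 CPM. Of survival and stress genes, 3 of 21 were higher and 0 lower with vancomycin (median 0.13), and 5 of 18 higher and 5 lower in the control library (median 0.04). Cflar, which blocks caspase activation at death receptors, had ratios of 1.81 and 1.96. Genes of cholesterol and lipid metabolism were higher in 3 of 14 and lower in 1 (median 0.38), and in the control library in 5 and 1 of 11 (median 0.97). TGF-beta and retinoic acid genes gave 1 higher and 1 lower of 15 (median -0.05), and 1 and 2 of 8 (median -0.19). Lineage factors gave 1 higher and 0 lower of 20 with vancomycin (median -0.01) and 6 and 2 of 16 in the control library (median 0.31). The gene called higher with vancomycin was Csf1r, the receptor of macrophage growth factor, also 1 of the 6. C1q members held 66.7% of its vancomycin and 85.4% of its control UMIs, and without admixed members its ratios were 0.38 and -0.059. Irf8, the factor of cDC1 development, had ratios of -0.24 and 1.02. With vancomycin it was at 669 CPM in members, 1102 CPM in cDC1 and 67.6 CPM in cDC2. In the control library the values were 1196, 791 and 30.9 CPM, so members were far above cDC2 in both.

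**Figure D3:**
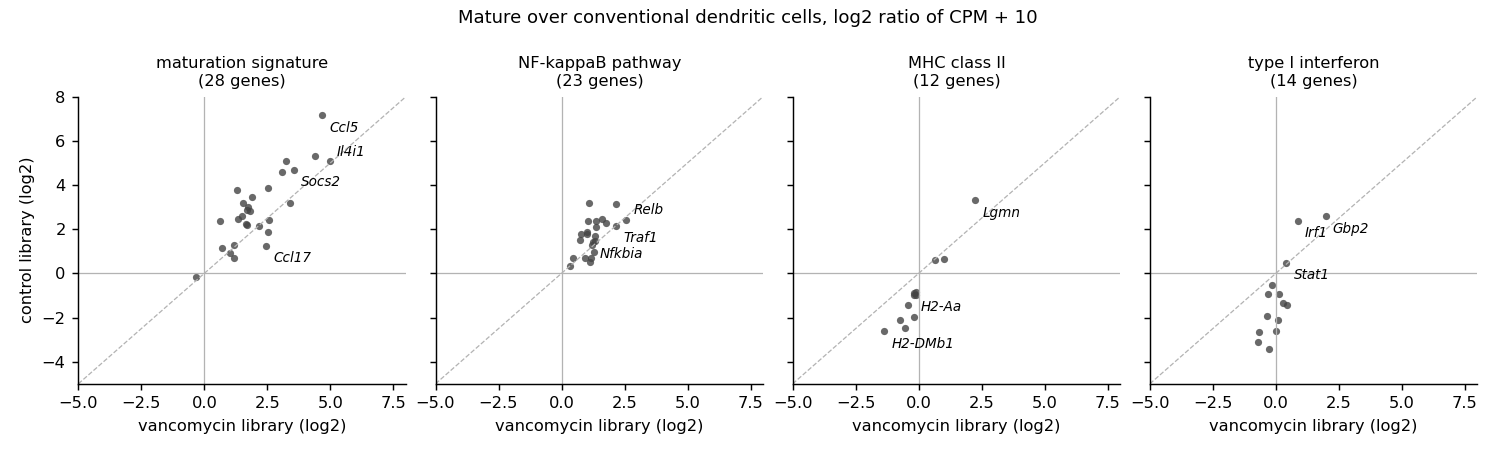
Log2 ratio of members over conventional dendritic cells (CPM + 10) in the vancomycin library (horizontal axis) and in the control library (vertical axis), for the genes of 4 lists counted in both. Points of the maturation and NF-kappaB lists lie at or above 0 on both axes except 1 maturation gene just below; class II points reach -2.63 in the control library (H2-DMb1) and -1.37 in the vancomycin library.

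Members differed widely among themselves in MHC class II. H2-Aa, H2-Ab1 and H2-Eb1 together ran from 4.02 through a median of 337 to 590 UMIs per 10000 in vancomycin members and from 0 through 58.7 to 436 in control members. Conventional dendritic cells had medians of 366 and 311. A limit of 100 per 10000, set after the values were seen, put 18 of 93 vancomycin members (19.4%, interval 11.9 to 28.9) and 17 of 25 control members (68.0%, 46.5 to 85.1) on the low side. Of conventional cells, 24 of 631 and 1 of 18 lay there. Without admixed members the counts were 14 of 75 (18.7%) and 16 of 23 (69.6%). Within 80 to 125 per 10000 lay 8 and 2 members. The low side is a range of values and not a cell type.

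Members low in class II carried more of the migration genes and of Ccl5. Fscn1 was at 4850 CPM below the limit and 1140 CPM above it with vancomycin, and at 5681 and 1445 CPM in the control library. Ccr7 was at 5017 and 2009 CPM, and at 8726 and 4067 CPM. Ccl5 was at 12839 and 2112 CPM, and at 15580 and 2583 CPM. All 3 were thus higher on the low side in both libraries, at median depths of 8302 and 10581 UMIs with vancomycin and 7718 and 18749 UMIs in the control library. Cxcl9 went the other way, at 80.8 and 1187 CPM with vancomycin and at 12.96 and 503 CPM in the control library. Ccl17 was at 226 and 1467 CPM with vancomycin, and at 130 and 133 CPM in the control library. Cd200 was at 490 and 91.2 CPM with vancomycin, and at 674 and 612 CPM in the control library.

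As a description over cells of 1 library, which share depth and free RNA, Spearman's rho with class II was -0.45 over 93 and -0.47 over 25 members for Fscn1. For Ccr7 it was -0.30 and -0.38, for Cacnb3 -0.39 and -0.31, and for Ccl5 -0.21 and -0.47. Ccl17 had a rho of 0.31 and 0.37, Il12b of -0.35 and -0.06, and the total UMI count of -0.07 and 0.39. Because Cd74, Ccr7 and Fscn1 chose the members, part of this pattern can come from the rule, and its share was not tested.

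**Figure D4:**
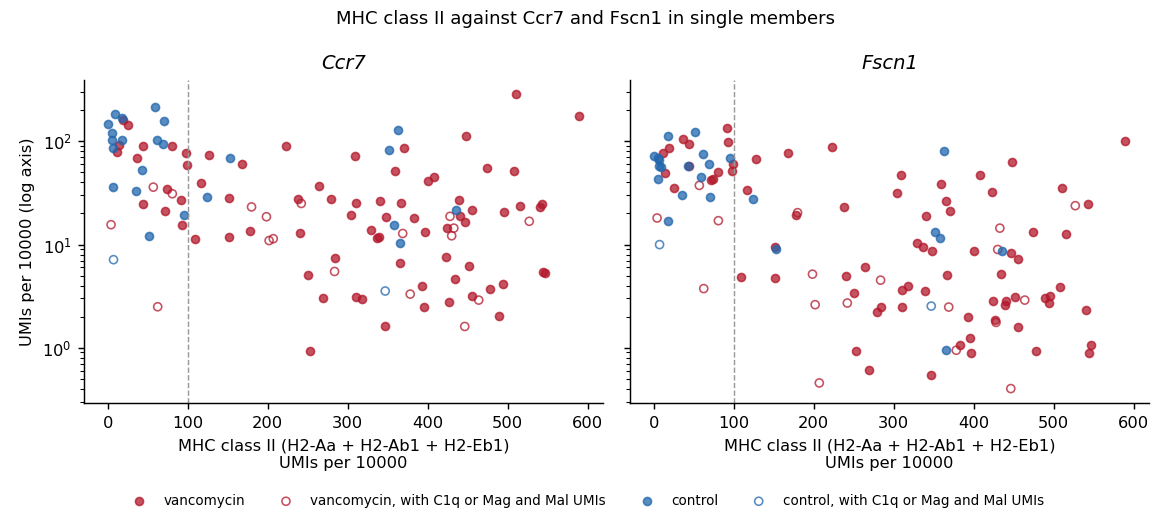
Ccr7 (left) and Fscn1 (right), in UMIs per 10000 on a log axis, against the class II sum per 10000 in each member, with the limit of 100 dashed and admixed members as open circles. Of control members 17 of 25 lie left of the limit, and of vancomycin members 18 of 93.

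Il12b and Ccl17 were seen together in some members. With vancomycin, 32 members held Il12b and 56 held Ccl17, and 21 held both, which is 65.6% of the first and 37.5% of the second, against 60.2% of all 93 members with Ccl17 and 34.4% with Il12b. In the control library 15 of 25 members held Il12b and 7 of 25 held Ccl17. There 2 held both, 13.3% of the first and 28.6% of the second, which is below the shares over all 25 members. These counts are small. Traces of subset genes remained in some members. Xcr1 or Clec9a alone was seen in 16 of 93 (17.2%) and 8 of 25 (32%), Cd209a or Clec10a alone in 16 of 93 (17.2%) and 0 of 25, which at 3 counts allows a share of up to 12% of members with a UMI. Neither pair was seen in 58 of 93 (62.4%) and 17 of 25 (68.0%), and both pairs in 3 and 0. With vancomycin Il12b was present in 10 of the 16 members with cDC1 genes alone and in 2 of the 16 with cDC2 genes alone. The median depths of those cells were 13440 and 10950 UMIs. Of the 8 control members with cDC1 genes, 5 held Il12b. Among members with neither pair, Il12b was seen in 19 of 58 with vancomycin and in 10 of 17 in the control library.

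Spread between cells was summarised as the variance over the mean of UMIs in 89 vancomycin members thinned to 2000 UMIs, with a median of 1.10 over 2859 genes. Ccl5 had a ratio of 36.6 with vancomycin and 18.5 in the control library, so it was very uneven in both. Cxcl10 had 16.8 with vancomycin, where 5 members held 72.7% of its UMIs and 25 of 93 held any. Ccl4 had 10.6, Lyz2 12.6 and Fabp5 9.03. The cystatin Cst3 (19.6 and 15.7), the actin regulator Tmsb4x (12.4 and 8.61) and Actb (9.12 and 8.75) were uneven at high levels. Apoe (21.0) had 85.7% of its UMIs in the 10 C1q members.

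Between the libraries, members of the vancomycin pool carried more Ccl17, Cxcl9, Cxcl10, interferon and class II transcripts, and less Il12b, Ccl5 and Cd200, than those of the control pool. Of 7033 genes with at least 20 UMIs over both sets of members 1026 (14.6%) were at least 2-fold higher with vancomycin and 393 (5.59%) lower; the median over all was 0.12. Many of these calls were shared with other cells. Of the 1026, 452 (44.1%) were also at least 2-fold higher over all other kept cells, against 10.0% of all genes counted, and 415 (40.4%) in T cells, against 8.43%. Of the 393 lower genes, 115 (29.3%) were lower in all other kept cells, against 6.85%, and 38 (9.67%) in T cells, against 1.56%. Ratios in other cells are therefore set beside those of the members that the text turns on.

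The highest ratios were almost all those of the whole library. Cmss1, a gene of ribosome assembly, was at 8351 CPM against 3.55 CPM (1 UMI), a log2 ratio of 9.27 in members and 8.60 in all other kept cells. Mal, Tubb4a, Aplp1, Apod, Mag, Pcdh9, Heph and Grik3 were at 0 in control members, with bounds of at least 37.5-fold (Pcdh9) to at least 92.0-fold (Heph). All 6 oligodendrocyte markers were called higher; their median was 4.42 on the log2 scale (4.26 at the bound). Mal was at 640 CPM, with 99.0% of its UMIs in the 9 members with Mag and Mal UMIs. Without admixed members Mal was at 9.59 CPM, while Heph was still at 1076 CPM and Cmss1 at 7627 CPM. Because Mag and Mal UMIs defined those 9 members, the low Mal value follows in part from the definition.

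Ccl17 was at 1263 CPM in vancomycin and 131 CPM in control members, a ratio of 9.62 (interval 6.94 to 13.7), and was held by 56 of 93 and 7 of 25 members. Its median was 1.66 per 10000 (highest 70.9) in the vancomycin members and 0 (highest 15.4) in the control members. The log2 ratio was 3.17 in members, 1.97 in conventional dendritic cells, 1.60 in T cells and 2.16 in all other kept cells, and 2.51 in members without the admixed ones. Ccl17 was thus higher with vancomycin in each class. Cxcl9 was at 1005 and 234 CPM, log2 ratio 2.05, but -0.03 in conventional cells and 2.05 in T cells, where it was at 33.5 and 0.490 CPM. Cxcl10 was at 429 and 60.3 CPM, a ratio of 7.11 (4.39 to 12.3). Its log2 ratio was 2.64 in members, 3.10 in conventional cells and -0.22 in all other kept cells. A UMI of Cxcl10 was seen in 25 of 93 (26.9%) and 6 of 25 (24%) members, so the higher sum lay in a few members with many UMIs, up to 139 per 10000 against 4.05.

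Il12b was lower with vancomycin, at 655 CPM against 2865 CPM, a ratio of 0.229 (interval 0.207 to 0.253). Its level ran from 0 through a median of 0 to 62.3 per 10000 in vancomycin members and from 0 through 2.86 to 282 in control members. Its log2 ratio was -2.11 in members and 0.04 in all other kept cells, and -2.34 without admixed members. The ranges overlapped, and 1 control member held 26.3% of the control UMIs. Ccl5 had a log2 ratio of -1.32 in members, 1.16 in conventional cells, 0.06 in T cells and -0.83 in all other kept cells. It ran from 0 through 13 to 632 per 10000 with vancomycin and from 0 through 94.1 to 350 in the control library. Il4i1 differed little, at 422 and 327 CPM (0.36, and -0.19 in all other kept cells).

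Surface molecules split. Cd200 was at 157 and 646 CPM (-1.98 in members, 0.24 in all other kept cells), and was seen in 46 of 93 and 21 of 25 members. Tnfrsf9 (4-1BB), a costimulatory receptor, was at 18.6 and 160 CPM (-2.57, and -0.87 elsewhere), and Il15ra at 67.4 and 273 CPM (-1.87, and 0.08 elsewhere). Slamf7 was at 499 and 156 CPM (1.61, and 0.26 elsewhere) and Icosl at 91.3 and 17.8 CPM (1.87, and -0.65 elsewhere). Cd40 (0.91, and 0.46 elsewhere), Cd86 (0.37, and 0.02) and Cd83 (-0.63, and -1.72) differed by less than 2-fold in members. Of 14 costimulation genes 4 were called higher and 3 lower, and of 19 restraint genes 2 and 2, shares that can be read against the 14.6% and 5.59% of all genes.

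By group, 12 of 32 maturation genes were called lower and 1 higher with vancomycin (median -0.82), and 4 of 24 NF-kappaB genes lower and 0 higher (median -0.30). MHC class II genes were called higher in 8 of 14 and lower in 0 (median 1.28), and H2-Ab1 was at 7776 and 2950 CPM (1.40). In T cells, which do not make class II in the mouse, H2-Ab1 was at 543 and 42.1 CPM, a log2 ratio of 3.41, and in conventional dendritic cells the ratio was 0.39. T cells thus also held more class II UMIs with vancomycin, and the part of such free RNA in the members was not tested. Class I genes were called lower in 4 of 20 and higher in 0 (median -0.53), with H2-K1 at 3047 and 6070 CPM (-0.99, and -0.80 in all other kept cells). Type I interferon genes were called higher in 12 of 23 and lower in 0 (median 1.15). Isg15, a ubiquitin-like interferon product, was at 501 and 220 CPM (1.15 in members, -0.70 in conventional cells and -0.10 in all other kept cells). Ifit3 was at 75.3 CPM against no UMI in the control members. Both were chosen after their values were seen.

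Of the 10 lowest ratios, Ftl1, the ferritin light chain, was at 279 and 3958 CPM (-3.78) and shared its shift with all other kept cells (-3.61). Fam177a was at 1.77 CPM (2 UMIs) against 767 CPM, a ratio of 0.00231 (0.000278 to 0.00845), and at -2.74 elsewhere on the log2 scale. Il1a (-3.52) and Gpr84 (-3.59) had most of their control UMIs in the 2 control members with C1q UMIs, 122 of 124 and 37 of 37. In all other kept cells both genes were lower too, at -2.98 and -3.46. Without admixed members Il1a had a log2 ratio of 0.23 and Gpr84 had no UMI in either library. Leaving out the same members moved Ccl3 from -2.02 to 2.01, Ccl4 from -0.41 to 4.48 and Tnf from 0.39 to 2.76, beside -2.59, -2.06 and -1.65 in all other kept cells. Igfbp4, which binds insulin-like growth factors, was at 58.5 and 717 CPM (-3.41, and -1.24 elsewhere). Scin, an actin severing protein, was at 38.1 and 252 CPM (-2.45, and -0.02 elsewhere), and was held by 11 of 93 and 10 of 25 members. Slc27a3 (-2.67, and 0.04 elsewhere), Thap12 (-2.53, and -0.76) and Castor1 (-2.46, and -0.68) completed the group with Tnfrsf9.

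**Figure D5:**
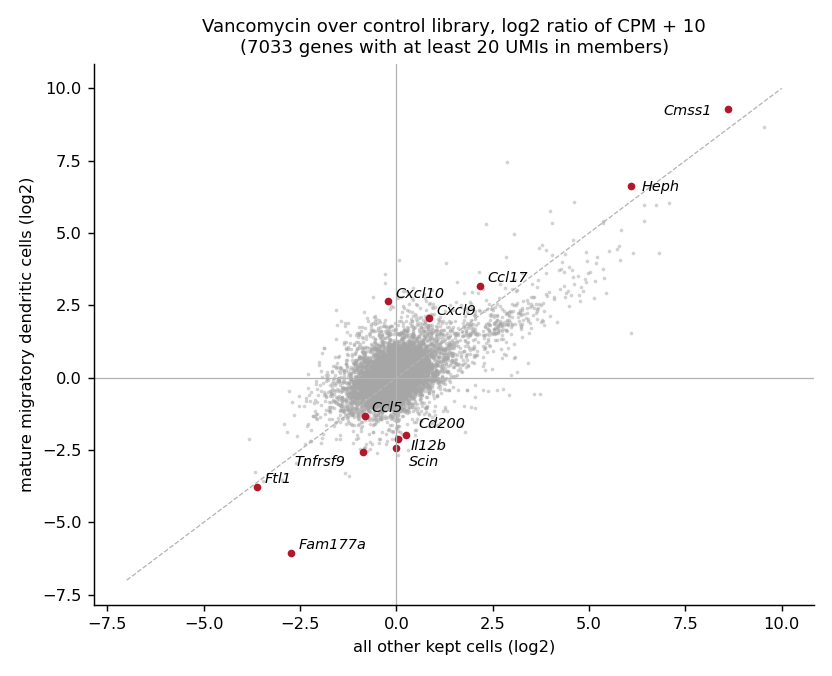
Log2 ratio of vancomycin over control (CPM + 10) for 7033 genes, in all other kept cells (horizontal axis) and in members (vertical axis), with named genes in red. Genes near the dashed diagonal, such as Heph, Cmss1 and Ftl1, differ alike in both; Il12b, Cd200 and Scin lie below 0 for members and near 0 for other cells, and Cxcl10 lies at 2.64 for members and -0.22 for other cells.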

How the data were processed

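Gene counts per barcode came from 2 libraries made with the 10x 5′ kit (v2 chemistry), 1 for each group. The deposited matrices hold whole-number UMI counts that the authors made with Cell Ranger, per the file headers in version 7.2.0 (vancomycin) and 6.0.1 (control), on mm10 per the submitters' processing notes; those notes also name Partek. The use of intron reads was not given in the sources used here. Deposited matrices held 16596 barcodes with 144451114 UMIs and 4272 barcodes with 25609899 UMIs.

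Kept barcodes were classed by the raw UMI limits given in the text, with at most 3 C1q UMIs in conventional dendritic cells and T cells. UMIs were summed per class and library (Python 3.11.15, numpy 2.4.6, scipy 1.17.1), scaled to CPM and compared as log2 ratios after adding 10 CPM. Ratios have exact conditional Poisson 95% intervals and shares have Clopper-Pearson intervals. A class without a UMI was set to 3 counts for bounds. With 1 library in a group no test was run, and the ratio computation was tested on simulated data. The members and all gene lists were chosen with earlier results of these data known.

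Named genes were the 15 highest and 10 lowest ratios of members over conventional cells with vancomycin. These had at least 50 UMIs over both classes together, 100 CPM in the higher class and the same sign in the control library. The 10 highest and 10 lowest ratios between libraries were also named (at least 30 UMIs over both libraries, 100 CPM on the higher side, interval without 1). Added to these were the 15 most uneven genes, from each list the 2 most abundant genes and the 2 with the largest ratios, and chemokines, cytokines and costimulation genes above 50 CPM. Ribosomal, mitochondrial, haemoglobin, immunoglobulin and T cell receptor genes, predicted gene models and sex-linked genes were not ranked, and 1 gene among the highest between libraries and the most uneven is not reported here. Alternatives were TMM factors (edgeR 4.0.16) and median of ratios factors, other pseudocounts and filters, thinning, other class rules and leaving out cells with UMIs of other lineages. No doublet caller was run. Promoter windows came from the RefSeq table of GRCm38.p6, and windows that overlap annotated UTRs are not shown.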

Additional observations from a re-analysis of the deposited data

How the results depend on the processing

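No paired analysis was possible because each group is 1 pooled library. The ratio of shares (0.972) moved to 0.106 per conventional dendritic cell and to 0.569 without the Cd74 minimum. Counts of genes at least 2-fold higher and lower in vancomycin members than in conventional cells, 432 and 234, moved to 1052 and 977 with a pseudocount of 1 CPM and to 129 and 52 with 50 CPM. The lower count moved to 572 in cells thinned to 2000 UMIs and to 534 without cells holding a UMI of another lineage, and the higher count to 751 against cDC1 alone. In the control library the counts of 606 and 428 moved to 391 and 222 with 50 CPM, to 1334 and 1160 with no minimum UMI count and to 156 and 86 after thinning. There, the lower count moved to 262 without other-lineage cells and to 202 against cDC2 alone. Between libraries 1026 and 393 moved to 201 and 141 with 50 CPM, to 277 and 202 after thinning, and to 640 and 617 less the ratio in conventional dendritic cells. The higher count there moved to 555 without other-lineage cells, 579 without admixed members and 544 less the ratio in T cells; those last 2 settings and the one without the Cd74 minimum were chosen after seeing the data.

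These log2 ratios were among those that changed sign, and the cause was not tested. Without other-lineage cells, Csf1r with vancomycin was at -0.37, and in the control library Ccl3 was at -1.76, Ccl4 at -3.40, Il1a at -1.07, Tnf at -2.60 and Csf1r at -1.63. Without admixed members those 5 control values were -1.17, -2.11, -0.79, -1.64 and -0.059. Against cDC2 alone with vancomycin, Ppt1 was at 0.74, Cd36 at 1.32, Rab7b at 1.03, Cd24a at 0.37, Nfkbia at -0.0027, Itgae at 0.12 and Ube2c at 0.11. Against control cDC2, Ppt1 was at 0.26, Cd36 and Rab7b at 0.44, Plin2 at 0.17, Tnf at -0.63, Nfkbia at -0.20 and Itgae at 2.29. Il1b was at 4.05 against control cDC1, and Tnf at -0.70 in thinned control cells. Between libraries, Cd24a was at 0.25 after thinning. Without other-lineage cells Gpr84 was at 0, Il1a at 1.01 and Ccl3 at 1.80, and without admixed members they were at 0, 0.23 and 2.01. Less the ratio in conventional cells, Heph was at -0.50, Cxcl10 at -0.46, Csf2rb at 0.038, Tnfsf9 at -0.12 and Ramp3 at 0.87. Less the ratio in T cells, Heph was at -0.52, Mag at -0.15, Il1b at -0.41, H2-Ab1 at -2.01, H2-DMb1 at -0.47 and Ramp3 at 0.69. Of the other single-gene values, 2773 were classed as the same and 179 as moved. Not all sign changes are listed here. Against vancomycin cDC2 alone, members held Il1b at 2028 against 3362 CPM and Irf8 at 669 against 67.6 CPM.

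The 25 control members and 18 control conventional cells hold few UMIs, with a floor of 3 counts at 10.6 and 12.5 CPM against 2.66 and 0.349 CPM with vancomycin, so low genes of the control library could not be compared. Fewer cells of a type and less RNA in each cannot be told apart in summed counts. A member is a barcode that passed limits on a few genes, and cells with little Ccr7 or Fscn1 RNA were missed. PCR reads of 1 molecule are collapsed by UMIs, but intervals cover counting error only.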

Other observations

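Barcodes that failed the rule on Ccr7 alone, with Fscn1 UMIs but fewer than 2 of Ccr7, numbered 210 with vancomycin and 64 in the control library. At least 4 C1q UMIs were held by 116 and 60 of them, and P2ry12, a microglial receptor, was at 138 and 842 CPM. Their Il12b level was 50.3 and 36.7 CPM, against 655 and 2865 CPM in members. Those that failed on Fscn1 alone, 41 and 8 barcodes, had Cd74 at 45780 and 53884 CPM, above the 32327 and 18025 CPM of members, and Ccr7 at 753 and 1383 CPM. The 73 vancomycin barcodes that failed on Cd79a alone had a median of 11 Cd79a UMIs, with 6 of them at a single UMI, and Il12b was seen in 11 of them.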
